A study of Arabidopsis thaliana with 12 samples.

Results

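The 5 genes described here encode 3 chitinases, a β-1,3-glucanase and a legume lectin-like protein of Arabidopsis thaliana. CHI (AT2G43570), AT2G43580 and AT2G43590 are chitinase genes that follow one another on chromosome 2. AT4G16260 encodes the glucanase and AT3G16530 the lectin-like protein, each on another chromosome. Each gene had 1 probe set that the platform annotation gives to it alone, so the members are 5 of the 22746 probe sets tested, 13513 of which carry 1 gene. The genes were selected on measured differences between the groups of these same 12 arrays, so the comparisons of their levels between groups are a description and carry no test. Where a member is said below to pass the threshold, that only places it among all probe sets. The number of settings in which a member passes is likewise no evidence for it.

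Chitinases cut chitin, the N-acetylglucosamine polymer of fungal cell walls, and β-1,3-glucanases cut the glucan that accompanies it there. Plant β-1,3-glucan also occurs as callose, which is laid down at plasmodesmata, in sieve plates and at sites of attack. Legume lectin-like proteins carry a fold that binds sugars in many plants, and transcripts of all 3 classes are known to accumulate in plants under attack by microbes.

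The arrays came from C3H14-OE plants, C3H15-OE plants, c3h14c3h15 double mutants and WT plants, with 3 arrays in each group. C3H14 and C3H15 are related CCCH zinc finger proteins, and the groups ask how stem transcripts differ when either gene is overexpressed or both are mutated. Total RNA was taken from the lowest 4 cm of inflorescence stems that were 12 to 17 cm tall, from Col-0 plants kept in 1 glasshouse at 22 °C with 16 h of light and 8 h of dark. Each sample was labelled by a 3′ kit and read on its own Affymetrix array. No source used here names the promoter of the transgenes or the alleles of the double mutant, and the labels do not settle if each overexpressor array stands for its own transgenic line. Any p-value below therefore sets a difference of group means only against the spread among these samples.

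All levels are log2 of the deposited normalised intensity, and all differences are in log2 units, so that 1 unit is a doubling. Standard errors (SE) are limma's moderated ones, from 1 fit to all 12 arrays. A probe set was counted as past the threshold where its adjusted p (limma, Benjamini-Hochberg over all 22746 probe sets) was under 0.05. The array medians lay between 5.65 and 5.84, and pairs of arrays correlated at 0.953 to 0.995. The transcript of C3H14 itself was read at 8.43, 9.10 and 7.07 on the arrays labelled C3H14-OE, against 7.01, 6.12 and 7.43 in WT. The array labelled C3H14-OE replicate 3 thus lay within the WT range for the overexpressed gene. C3H14 was read at 5.18, 5.39 and 5.99 in C3H15-OE, below every WT array, and at 6.55, 6.43 and 6.08 in the double mutant, overlapping WT. Where the probe set lies relative to the mutation is not known here, so it does not check the mutant label. The probe set of C3H15 is unnamed here and was not checked. In a bulk sample of stem, fewer cells that express a gene and less RNA per cell cannot be told apart.

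CHI was high on the C3H15-OE arrays. Its levels, in the order of replicates 1, 2 and 3, were 7.51, 6.27 and 10.77 in C3H14-OE, 9.83, 9.80 and 8.08 in C3H15-OE, 6.27, 4.42 and 5.75 in c3h14c3h15, and 5.95, 5.85 and 5.27 in WT. Every overexpressor array lay above every WT array, while the double mutant and WT arrays overlapped. The C3H15-OE mean exceeded WT by 3.55 (SE 0.93), which is 11.7-fold, and the C3H14-OE mean exceeded WT by 2.49, or by 1.20 (SE 0.62) without replicate 3 of that group. In the double mutant the difference from WT was -0.21, within the spread of the arrays. The group means were 8.18 ± 2.32 in C3H14-OE, 9.24 ± 1.0 in C3H15-OE, 5.48 ± 0.96 in the double mutant and 5.69 ± 0.37 in WT (SD, n = 3 each). C3H15-OE was thus the highest by mean and overlapped C3H14-OE, which in turn lay clear of WT, while the double mutant was the lowest.

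The neighbouring chitinase gene AT2G43580 was read at 6.21, 5.03 and 10.74 in C3H14-OE, at 7.08, 6.28 and 5.81 in C3H15-OE, at 5.33, 3.65 and 4.64 in the double mutant, and at 3.96, 4.37 and 4.10 in WT. Both overexpressor groups lay above WT without overlap, and the double mutant overlapped WT. The difference from WT was 3.18 (SE 1.09) for C3H14-OE, 2.25 for C3H15-OE and 0.40 for c3h14c3h15. C3H14-OE replicate 3 stood 5.12 above the mean of the other C3H14-OE arrays. Without that array the C3H14-OE difference from WT was 1.48 (SE 0.49). The group means were 7.33 ± 3.01 in C3H14-OE, 6.39 ± 0.64 in C3H15-OE, 4.54 ± 0.85 in the double mutant and 4.15 ± 0.21 in WT (SD, n = 3 each), and neighbours in that order overlapped except C3H15-OE and the double mutant.

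AT2G43590, the third chitinase of the run, was read at 5.31, 4.49 and 11.18 in C3H14-OE, at 6.22, 5.51 and 5.06 in C3H15-OE, at 4.5, 4.53 and 4.58 in the double mutant, and at 3.72, 3.94 and 3.76 in WT. WT held the lowest 3 values of the 12, and the double mutant arrays lay above them without overlap, by 0.73 on average. All 3 double mutant arrays were above all 3 WT arrays for 10.8% of all probe sets. The mean difference from WT was 3.19 (SE 1.26) in C3H14-OE and 1.79 in C3H15-OE. C3H14-OE replicate 3 exceeded the mean of the other C3H14-OE arrays by 6.28, the second largest such gap among 22746 probe sets. The C3H14-OE difference from WT was 1.10 (SE 0.30) without that array. The means stood in the order C3H14-OE (7.0 ± 3.65), C3H15-OE (5.60 ± 0.58), double mutant (4.54 ± 0.04) and WT (3.81 ± 0.12; SD, n = 3 each), and of these neighbours only the overexpressors overlapped each other.

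AT4G16260 encodes a β-1,3-glucanase of glycoside hydrolase family 17. Its levels were 10.65, 9.96 and 12.17 in C3H14-OE, 11.64, 9.89 and 8.54 in C3H15-OE, 6.17, 3.85 and 5.58 in c3h14c3h15, and 7.95, 8.88 and 5.92 in WT. All overexpressor arrays lay above all double mutant arrays, and WT stood between, overlapping C3H15-OE at its upper end and the double mutant at its lower end. The C3H14-OE mean was 5.72 (SE 0.93) above the double mutant, a 52.8-fold difference, and the C3H15-OE mean was 4.82 above it, or 28.3-fold. Without C3H14-OE replicate 3 the C3H14-OE difference from WT was 2.72 (SE 0.98). Against WT, with all arrays, the differences were 3.34 for C3H14-OE, 2.44 for C3H15-OE and -2.38 for c3h14c3h15, and the C3H15-OE value was 1.61 without WT replicate 3. The difference between C3H14-OE and the double mutant was the second highest of all 22746 probe sets, and that of C3H15-OE the third highest. The means were 10.93 ± 1.13 in C3H14-OE, 10.02 ± 1.55 in C3H15-OE, 5.20 ± 1.20 in the double mutant and 7.59 ± 1.51 in WT (SD, n = 3 each).

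The lectin-like gene AT3G16530 varied least within groups. It was read at 11.31, 10.77 and 10.88 in C3H14-OE, at 10.92, 9.90 and 9.97 in C3H15-OE, at 7.47, 7.25 and 7.28 in the double mutant, and at 9.72, 10.11 and 8.88 in WT. The double mutant arrays all lay below every other array, and C3H14-OE lay above WT without overlap, while C3H15-OE and WT overlapped. Its means were 10.98 ± 0.28 in C3H14-OE, 10.27 ± 0.57 in C3H15-OE, 7.33 ± 0.12 in the double mutant and 9.57 ± 0.63 in WT (SD, n = 3 each). The double mutant mean was 2.23 (SE 0.32) below WT, so that WT was 4.71-fold higher. C3H14-OE exceeded WT by 1.42 and C3H15-OE exceeded WT by 0.70, which was 0.37 without replicate 1 of C3H15-OE and 0.35 without replicate 3 of WT. C3H14-OE exceeded the double mutant by 3.65, a 12.6-fold difference. C3H14-OE replicate 3, high for the chitinases, was 0.16 below the mean of the other C3H14-OE arrays for this gene.

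**Figure D1:**
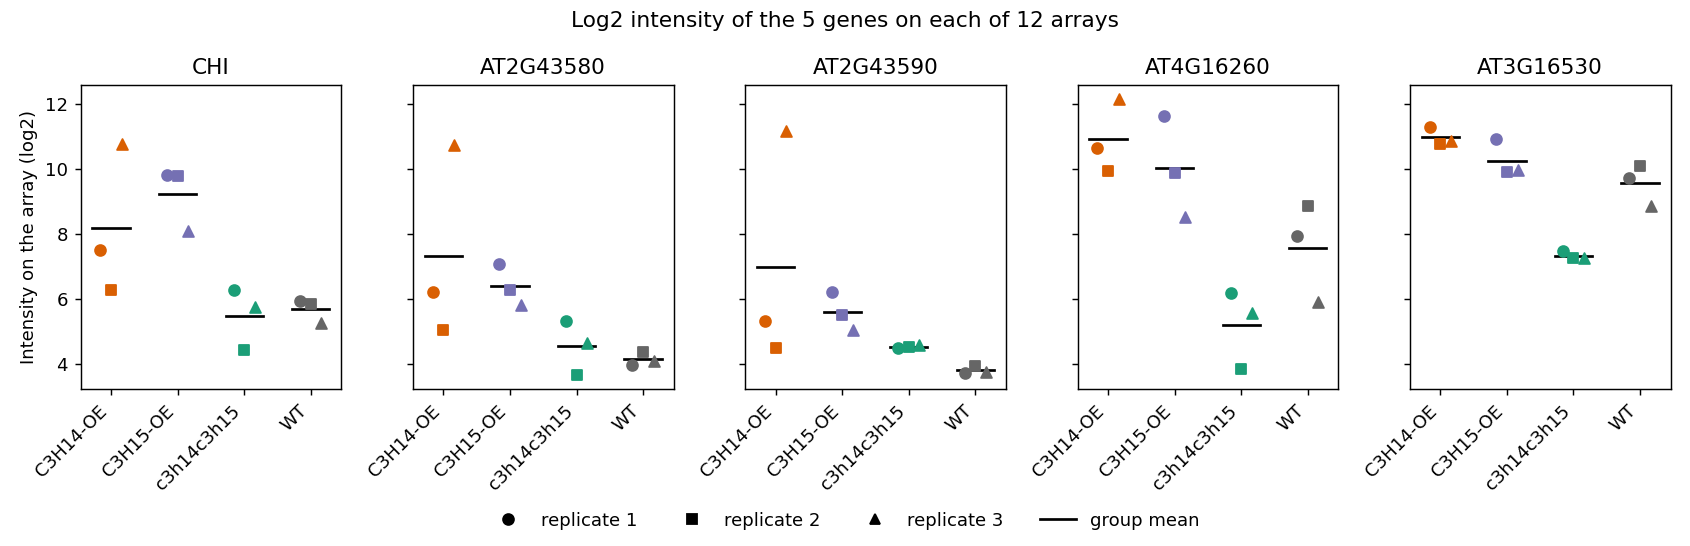
Log2 intensity of each of the 5 genes on each of the 12 arrays, with points for arrays and lines for group means, in the order C3H14-OE, C3H15-OE, c3h14c3h15 and WT. C3H14-OE replicate 3 stands far above its group for AT2G43590 (11.18) and AT2G43580 (10.74), and the double mutant is lowest throughout for AT3G16530 (7.25 to 7.47).

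By group means the 5 genes thus fell into 2 patterns. The 3 chitinases differed from WT by -0.21 to 0.73 in the double mutant and were higher in both overexpressors. The glucanase and the lectin-like gene were lower in the double mutant than in WT, by 2.38 and 2.23, and were higher in the overexpressors. The double mutant arrays overlapped WT for the glucanase but not for the lectin-like gene, and the C3H15-OE arrays overlapped WT for both. All comparisons with WT share the 3 WT arrays, and all comparisons with the double mutant share its 3 arrays.

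In C3H14-OE against WT, none of the 5 genes passed the threshold in limma, where all 5 had an unadjusted p under 0.05, as had 14% of all probe sets. Over the whole array 10 probe sets passed, or 0.044%. The share with an unadjusted p under 0.05 was 24.6% of all probe sets in C3H15-OE against WT and 21.8% in the double mutant against WT, and these shares are the background of every unadjusted count below. All 5 genes had their C3H14-OE arrays above all WT arrays, as did 9.31% of all probe sets. The median difference was 3.18 over the 5 genes and -0.04 over all probe sets, and in C3H15-OE against WT these medians were 2.25 and -0.03. Since the genes were selected on these arrays, nothing is read from these shares or from those that follow.

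In C3H15-OE against WT, CHI passed the threshold and the other 4 did not, against a background of 6.65% of all probe sets. The C3H15-OE arrays lay above WT without overlap for the 3 chitinases, and for 12.7% of all probe sets. The spread of C3H14-OE replicate 3 enters the SE of this comparison too, because 1 fit covers all groups. Without that array, the SE of the C3H15-OE difference was 0.55 for CHI, 0.44 for AT2G43580 and 0.27 for AT2G43590. All 3 chitinases then passed, against 8.29% of all probe sets. The call for CHI held in 10 of the 19 alternative settings, and those for AT2G43580 and AT2G43590 appeared in 3 of them.

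In the double mutant against WT, AT3G16530 passed as lower, against 5.7% of all probe sets past the threshold in either direction. Its call held in all 19 alternative settings, which does not undo its selection on these same arrays. It was also the 1 gene of the 5 whose WT arrays all exceeded the double mutant arrays, which 13.1% of all probe sets did. AT4G16260 had a mean difference of similar size but a WT range of 5.92 to 8.88, and passed in 0 of the 19 alternative settings. The median difference was -0.21 over the 5 genes and -0.01 over all probe sets.

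**Figure D2:**
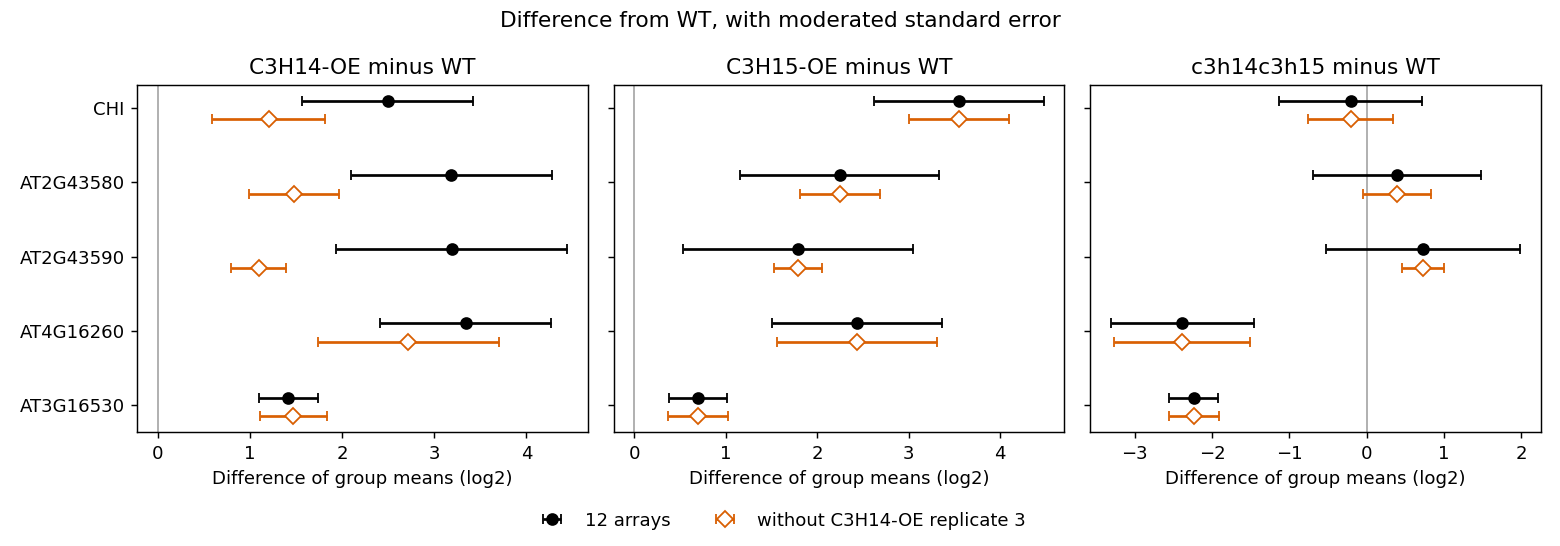
Log2 difference from WT of each of the 5 genes in C3H14-OE, C3H15-OE and c3h14c3h15, with bars of 1 SE, using all 12 arrays and without C3H14-OE replicate 3. The C3H14-OE difference of AT2G43590 is 3.19 with the array and 1.10 without it, while that of AT3G16530 is 1.42 and 1.47.

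In C3H14-OE against the double mutant, AT4G16260 and AT3G16530 passed, against 14.7% of all probe sets. The same 2 genes had all C3H14-OE arrays above all double mutant arrays, as had 17.4% of all probe sets. In C3H15-OE against the double mutant, CHI, AT4G16260 and AT3G16530 passed, against 23% of all probe sets, and all 5 passed without C3H14-OE replicate 3, against 23.3%. All 5 had their C3H15-OE arrays above the double mutant arrays, as had 18.8% of all probe sets. The calls of AT4G16260 and AT3G16530 against the double mutant held in all 19 alternative settings for either overexpressor.

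Between the overexpressors none of the 5 genes passed the threshold in limma, where 1 had an unadjusted p under 0.05, as had 9.79% of all probe sets, and 0.123% of all probe sets passed. The arrays of the 2 groups overlapped for every one of the 5 genes. C3H14-OE minus C3H15-OE was -1.06 for CHI, 0.94 for AT2G43580, 1.40 for AT2G43590, 0.90 for AT4G16260 and 0.72 for AT3G16530. Without C3H14-OE replicate 3 it was -2.35 for CHI, -0.77 for AT2G43580, -0.69 for AT2G43590, 0.28 for AT4G16260 and 0.77 for AT3G16530. The sign for AT2G43580 and AT2G43590 therefore rests on 1 array. The CHI value was -0.10 without C3H14-OE replicate 2, and the AT4G16260 value was 0.16 without C3H15-OE replicate 3.

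Within groups, 4 of the 5 genes were among the most variable on the array. The pooled within-group SD was 1.85 for AT2G43590, the 6th highest of 22746 probe sets, and 1.60 for AT2G43580, the 20th. AT4G16260 and CHI both had an SD of 1.36, and AT3G16530 one of 0.451, while the median probe set had 0.179. Apart from the 5 genes, the named probe sets with the largest gap on C3H14-OE replicate 3 were AT4G33550 (6.25), PDF1.2 (5.95), AT5G52390 (5.62), AT2G37870 (5.56) and SAG29 (5.42). They were singled out after their values were seen. SAG29, a sugar transporter that marks senescing tissue, was read at 9.90 on that array and at 4.42 to 5.59 on the other 11. It was the 1 measured marker of 5 listed for senescence. Its part in the chitinase values was not tested.

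Across the 12 arrays the neighbouring chitinases ran together. Pearson's r was 0.961 between AT2G43580 and AT2G43590, 0.888 between CHI and AT2G43580, and 0.777 between CHI and AT2G43590. Without C3H14-OE replicate 3 these values were 0.907, 0.929 and 0.847. The glucanase and the lectin-like gene correlated at 0.926 with all arrays and 0.932 without that one. CHI also correlated with AT4G16260, at 0.833, which was above its value with AT2G43590. AT4G16260 correlated with AT2G43580 at 0.754 and with AT2G43590 at 0.614. The lectin-like gene correlated with CHI at 0.631 and with AT2G43580 at 0.535. AT2G43590 and AT3G16530 were the least alike, at 0.401. These correlations describe 12 arrays that fall into groups, and related genes can share probe binding, which was not tested here.

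The genes next to the 5 members were examined in turn. Of the 30 genes that flank the 5 members (5 on each side, in RefSeq TAIR10.1 order), 13 had a probe set of their own. None passed the threshold against WT in limma. An unadjusted p under 0.05 was found for 2 of them for C3H14-OE, 4 for C3H15-OE and 3 for c3h14c3h15, against 14%, 24.6% and 21.8% of all probe sets. Against the double mutant 1 of the 13, AT2G43560 next to CHI, passed as lower in each overexpressor, against 14.7% and 23% of all probe sets. Its differences there were -1.06 in C3H14-OE and -1.29 in C3H15-OE (limma adjusted p = 0.0126 and 0.0031). The chitinase genes just after the run, AT2G43600 and AT2G43610, differed from WT by -0.08 and -0.05 in C3H14-OE, and by -0.06 and -0.05 in C3H15-OE. AT2G43620, another chitinase gene, was 0.97 above WT in C3H14-OE and 0.10 above it in C3H15-OE. It was read at 8.19 on C3H14-OE replicate 3 and at 4.67 to 7.0 elsewhere. On the other side of the run, AT2G43530 had a larger difference from WT than AT2G43600 and AT2G43610, 1.01 in C3H14-OE and 0.996 in C3H15-OE, and did not pass.

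**Figure D3:**
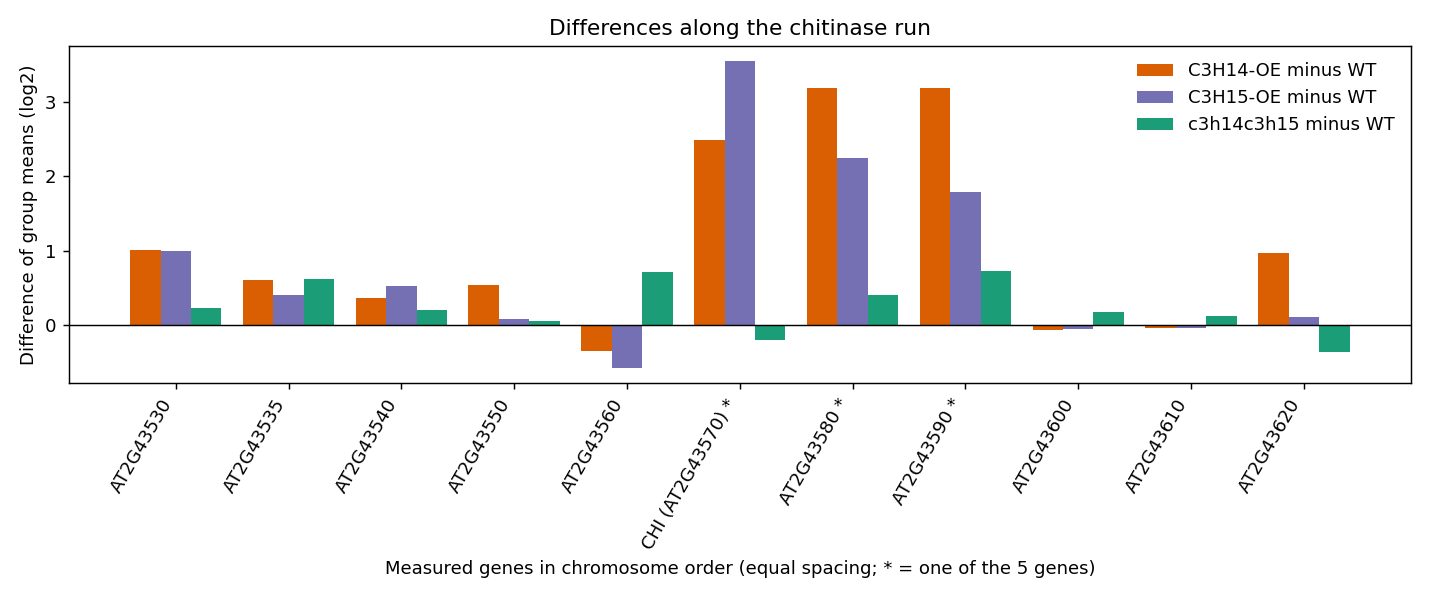
Log2 difference from WT for the 11 measured genes in their order on chromosome 2 around the chitinase run, in C3H14-OE, C3H15-OE and c3h14c3h15. CHI, AT2G43580 and AT2G43590 stand 1.79 to 3.55 above WT in the overexpressors. AT2G43600 and AT2G43610 lie near 0 there (-0.08 to -0.05), but both are dim (means of 2.92 and 3.60).

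Of 21 other chitinases of glycoside hydrolase families 18 and 19 listed, 12 were measured, and 9 of the 12 had a mean below the array median. Of the 12, 1 passed in C3H15-OE and again in the double mutant, against 6.65% and 5.7% of all probe sets. AT3G47540, a gene of the chitinase family, rose in C3H15-OE by 1.72 (SE 0.20, limma adjusted p = 0.00347) and in the double mutant by 0.82 (limma adjusted p = 0.0393, a call lost in 11 of the 19 alternative settings). Its levels were 8.39, 7.95 and 7.42 in C3H15-OE, while the double mutant had 7.04, 6.85 and 7.18, against 6.33, 6.28 and 6.0 in WT. In C3H14-OE it was read at 7.18, 7.0 and 7.23, a difference from WT of 0.93 that did not pass (limma adjusted p = 0.162). All 9 arrays of the other 3 groups thus lay above every WT array. None of the 12 passed in C3H14-OE, where 1 had an unadjusted p under 0.05, against 14% of all probe sets. Such a p was found for 3 of the 12 in C3H15-OE, against 24.6%, and for 1 in the double mutant, against 21.8%. In C3H15-OE against the double mutant, AT3G47540 and AT4G01700 passed as higher (limma adjusted p = 0.00933 and 0.0491), against 23% of all probe sets. The median of the 12 was -0.05 for C3H14-OE, -0.04 for C3H15-OE and 0.11 for c3h14c3h15, and over all probe sets it was -0.04, -0.03 and -0.01 in the same order.

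Of 48 other β-1,3-glucanases of family 17 listed, 39 were measured. Of these, 21 had a mean below the array median. In C3H15-OE 1 rose and 3 fell, against 6.65% of all probe sets past the threshold. An unadjusted p under 0.05 was found there for 17 of the 39, against 24.6% of all probe sets. In the double mutant 1 fell, against 5.7%, and 4 had an unadjusted p under 0.05, against 21.8%. In C3H14-OE none passed in limma, and 6 had an unadjusted p under 0.05, against 14%. AT2G26600 rose in C3H15-OE by 0.63 (limma adjusted p = 0.0225). AT1G11820, AT5G58090 and AT3G04010 fell in C3H15-OE by 0.95, 0.93 and 0.81 (limma adjusted p = 0.0184, 0.0295 and 0.032). Each of these 4 calls was lost in 4 of the 19 alternative settings. AT1G11820 also fell in the double mutant, by 1.10. The median of the 39 was -0.14 for C3H14-OE, -0.13 for C3H15-OE and 0.04 for c3h14c3h15.

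None of the other 6 measured soluble legume lectin-like genes, of 9 listed, passed against WT in limma, where 2 had an unadjusted p under 0.05 in the double mutant and 0 had one in either overexpressor. The brightest of them, AT3G54080 and AT1G53070, had mean levels of 8.13 and 6.59. Against the double mutant 1 of the 6, AT1G53070, passed as lower in each overexpressor, where 14.7% and 23% of all probe sets passed. Its differences there were -1.26 in C3H14-OE and -1.34 in C3H15-OE (limma adjusted p = 0.0132 and 0.00604). The 12 callose synthase genes, whose product β-1,3-glucanases cut, had no named probe set here.

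**Figure D4:**
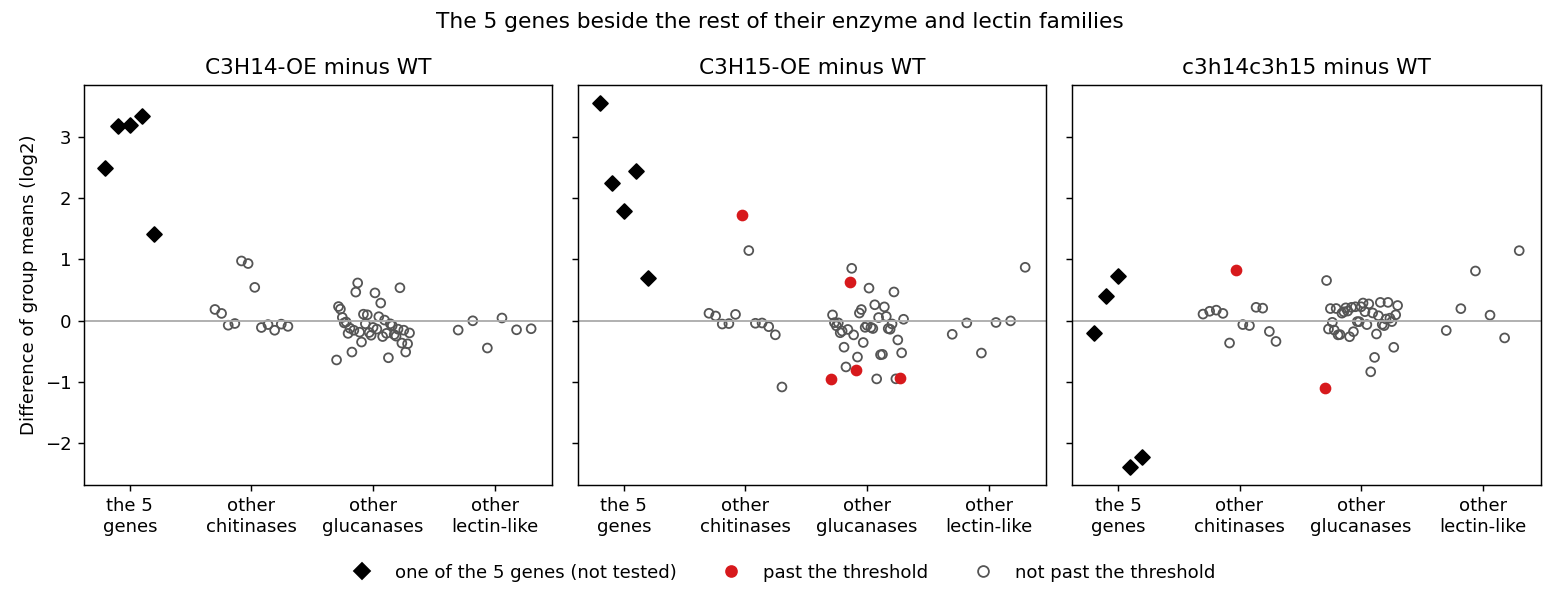
Log2 difference from WT of the 5 genes and of the other measured chitinases, β-1,3-glucanases and soluble legume lectin-like genes, in C3H14-OE, C3H15-OE and c3h14c3h15. Filled red points passed the threshold and open ones did not. The other family genes run from -1.10 (AT1G11820 in c3h14c3h15) to 1.72 (AT3G47540 in C3H15-OE). Among the other chitinases in C3H15-OE, AT4G01700 lies at 1.14 and AT4G19820 at -1.08, and neither passed.

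Genes of the hormone and chitin signalling routes that lead to such enzymes were thinly covered. WRKY53, a transcription factor of defence and senescence, rose in C3H15-OE by 2.0 (SE 0.34, limma adjusted p = 0.0103), and differed from WT by 1.23 in C3H14-OE and -0.53 in the double mutant. It was 1 of 2 salicylate-related genes measured of 25 listed, and the other, SAG101, did not pass against WT. WRKY53 and SAG101 both passed as higher than in the double mutant in each overexpressor, where 14.7% and 23% of all probe sets passed. For SAG101 the difference was 0.48 in C3H14-OE and 0.63 in C3H15-OE (limma adjusted p = 0.0242 and 0.00426). Of 16 jasmonate and ethylene genes 4 were measured and none passed against WT in limma. An unadjusted p under 0.05 was found for all 4 in each overexpressor, against 14% of all probe sets in C3H14-OE and 24.6% in C3H15-OE, and for none in the double mutant. PDF1.2, a defensin, was read at 6.55, 4.59 and 11.51 in C3H14-OE and at 11.13, 6.83 and 3.73 in C3H15-OE, against 2.60 to 3.19 in WT. OSM34, an osmotin, was read at 5.76, 5.38 and 9.75 in C3H14-OE and at 8.35, 5.34 and 3.26 in C3H15-OE, against 2.92 to 3.13 in WT. In each overexpressor the mean of PDF1.2 and OSM34 was pulled up by 1 array, replicate 3 of C3H14-OE and replicate 1 of C3H15-OE. PDF1.2b, the brightest of the 4, was read at 11.41, 11.14 and 12.42 in C3H14-OE. Its levels were 12.05, 10.49 and 8.13 in C3H15-OE, against 8.38, 9.27 and 5.91 in WT. It passed against the double mutant in C3H14-OE and C3H15-OE (limma adjusted p = 0.00362 and 0.00723), where 14.7% and 23% of all probe sets passed. Of 20 chitin perception genes 3 were measured, and BIK1, a kinase that acts below pattern receptors, fell in the double mutant by 0.68 (limma adjusted p = 0.0455, a call lost in 13 of the 19 alternative settings).

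Markers of stem tissue also moved with the groups. The 3 measured secondary wall genes of 14 listed were IRX10 (given as GUT2 in the annotation), IRX15 and IRX15-L. All 3 passed as lower in C3H15-OE than in WT, with differences of -0.91, -1.17 and -1.26, against 6.65% of all probe sets. In the double mutant all 3 were higher than in WT, by 0.57, 0.94 and 1.20. Of these IRX15 and IRX15-L passed there, against 5.7% of all probe sets. In C3H14-OE the differences of the 3 genes from WT were -0.61, -0.77 and -0.75, and none passed. In limma all 3 had an unadjusted p under 0.05 there, as had 14% of all probe sets. Every C3H14-OE array lay below every WT array for the 3 genes, and the share of all probe sets that did so was not counted. Their mean level ran from 6.97 to 9.75 over the 12 arrays. The 2 measured green tissue markers of 8 listed averaged 11.1 to 12.5 and did not pass against WT. Against the double mutant, all 3 secondary wall genes passed as lower, with differences of -1.95 to -1.19 in C3H14-OE and -2.46 to -1.49 in C3H15-OE. Both green tissue markers, LHCB4.1 and LHCB4.2, passed as lower there too, with differences of -0.77 and -0.80 in C3H14-OE and -0.61 and -0.69 in C3H15-OE. Of all probe sets, 14.7% passed in C3H14-OE against the double mutant and 23% in C3H15-OE against it, in either direction. AT4G16260 had its highest differences, 5.72 and 4.82, in these same contrasts. The root marker PYK10 lay between 1.98 and 2.31, and the 3 measured tapetum and pollen markers were dim as well. The part of these markers in the levels of the 5 genes was not tested.

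Genes with profiles most like the mean of the 5 were sought among 6461 probe sets of 1 gene, by Pearson's r over the 12 arrays. The closest were AT4G19390 (0.982), AT1G65500 (0.967), the copper amine oxidase CuAO1 (0.954), AT1G63010 (0.943) and DI21 (0.941). AT1G22180, the pyruvate decarboxylase gene PDC2, AT2G38450, AT5G25930 and AT5G07340 followed, at 0.938 to 0.923. Of these 10, 5 were also in the top 10 by Spearman's rho, 1 in that by deviations from group means, and 0 in that without C3H14-OE replicate 3. The last list was led by WRKY53.

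Each gene also had its own nearest profiles. CHI was most like AT5G07340 (0.973) and AT1G67920 (0.959). AT2G43580 and AT2G43590 were both most like AT2G37870, at 0.957 and 0.953, followed by Fes1A (0.937) for AT2G43580 and AT5G25450 (0.939) for AT2G43590. AT4G16260 was most like AT1G53430 (0.983) and CuAO1 (0.979), and AT3G16530 most like AT3G23550 (0.977) and ACA.l (0.975). These genes were picked for following the members on the same arrays, so their own group differences are not given as results.

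**Figure D5:**
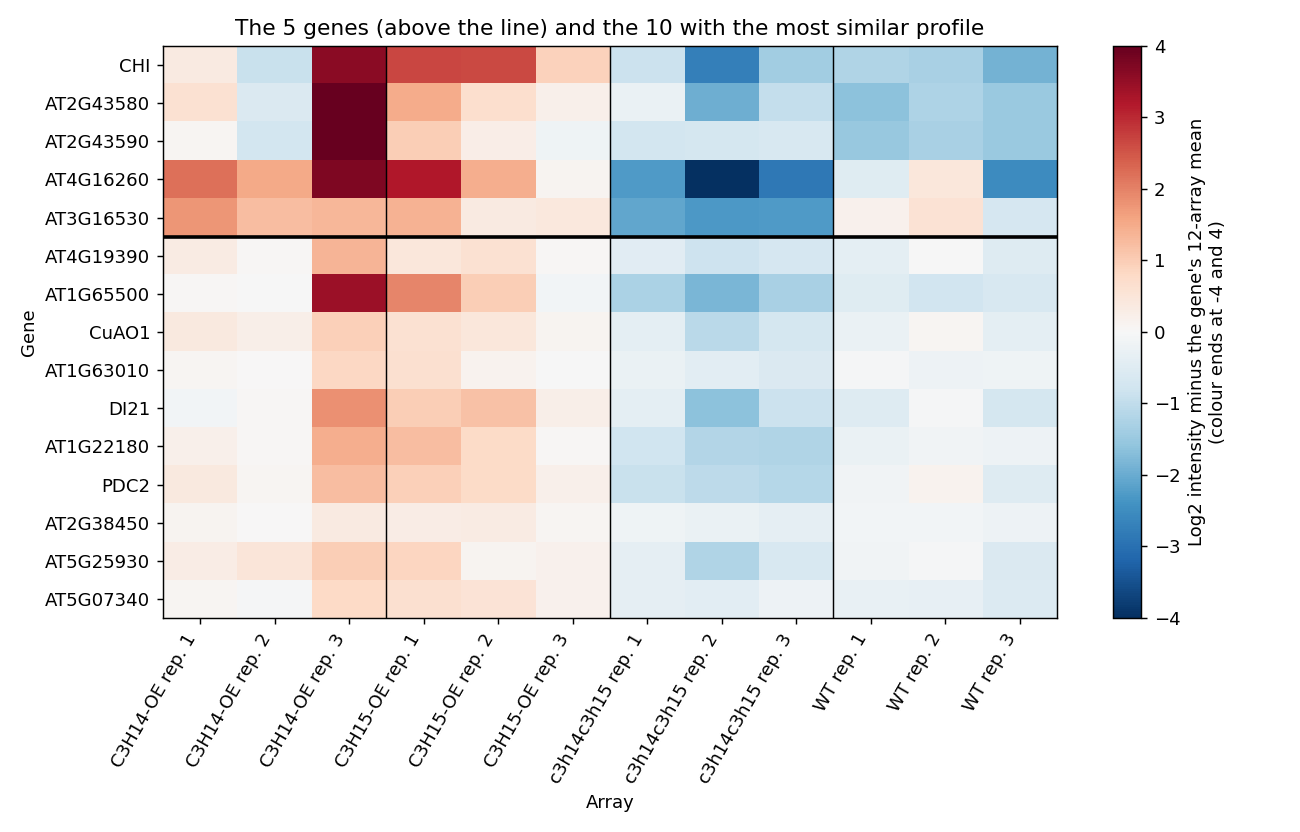
Log2 intensity of the 5 genes and of the 10 genes with the most similar profile, each minus its own mean over 12 arrays, by array in the order C3H14-OE, C3H15-OE, c3h14c3h15 and WT. C3H14-OE replicate 3 is the highest array for 4 of the 5 genes, and the double mutant arrays are mostly below the gene mean.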

How the data were processed

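Transcripts were measured on 12 arrays, 3 per group. The deposited values are linear intensities that the authors normalised with RMA, per the submitters' processing notes; its version is not given in the sources used here. RMA gives no detection call. Log2 of each deposited intensity was taken. Of 22810 probe sets 64 controls were left out. The rest were fitted with limma 3.58.1 in R 4.3.3, 1 mean per group over all 12 arrays, giving 6 pairwise contrasts adjusted by Benjamini-Hochberg. The number of arrays limits the precision. Genes were named from the platform annotation (8730 probe sets unlisted, 503 with several genes) and RefSeq TAIR10.1. The members and gene lists were chosen with earlier results of these data known. Named genes are all members, up to 4 list genes past the threshold per contrast with WT (otherwise up to 2, the brightest), flanking genes past it, and the 10 most alike plus 2 per member. The flanking genes named and genes high on 1 array were named after their values were seen. The 19 alternatives dropped each array in turn, 3 arrays singled out in earlier results or the dimmest 40%, repeated quantile normalization, used cyclic loess, a replicate block or a trended robust prior, or fitted only the groups compared. Of 18 pairs of arrays with the same replicate number 4 had deviations correlating over 0.1, so the numbers were not taken to pair arrays.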

Additional observations from a re-analysis of the deposited data

Results flagged for a closer look

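For 2 of the 5 genes, every overexpressor array lay above the WT mean and every double mutant array below it. How many of all probe sets did so was not counted. The WT arrays themselves overlapped the C3H15-OE arrays for both genes, and the double mutant arrays for AT4G16260. For AT4G16260 the C3H14-OE arrays stood 2.37 to 4.59 above the WT mean, against -3.73 to -1.41 in the double mutant, a difference between these groups of 5.72. The C3H15-OE arrays of AT4G16260 stood 0.96 to 4.06 above it, a difference from the double mutant of 4.82. For AT3G16530 the C3H14-OE arrays stood 1.20 to 1.74 above the WT mean, against -2.32 to -2.09 in the double mutant, a difference of 3.65. Its C3H15-OE arrays stood 0.34 to 1.35 above, a difference of 2.93. The genes were selected on these arrays, so the difference was not tested.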

How the results depend on the processing

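The number of the 5 genes past the threshold in C3H15-OE against WT was 1, and became 3 when only the arrays compared were fitted or 3 arrays singled out in earlier results of these data (replicate 3 of C3H14-OE, replicate 1 of c3h14c3h15 and replicate 2 of WT) were left out. It became 0 with the replicate block or with a trended robust prior. Leaving out 1 array gave 0 to 3, with 0 without C3H14-OE replicate 1, C3H15-OE replicate 1 or 2, c3h14c3h15 replicate 3 or any WT array, and 3 without C3H14-OE replicate 3. In the double mutant against WT it was 1, and 2 with only the arrays compared. In C3H14-OE against the double mutant it was 2, and 2 to 4 with 1 array left out (4 without C3H14-OE replicate 2). In C3H15-OE against the double mutant it was 3, became 5 with only the arrays compared or without the 3 arrays, and 2 to 5 with 1 array left out. Pathway list genes past the threshold numbered 6 in C3H15-OE against WT (15 without the 3 arrays, 2 to 10 with 1 left out) and 3 in the double mutant against WT (1 without the 3 arrays, 1 to 4 with 1 left out). Over all probe sets the counts ran, over the 19 settings, from 1 to 190 around 10 in C3H14-OE against WT, from 223 to 2892 around 1513 in C3H15-OE against WT, from 361 to 1513 around 1296 in the double mutant against WT, from 0 to 252 around 28 between the overexpressors, from 1848 to 3420 around 3354 in C3H14-OE against the double mutant, and from 3117 to 5651 around 5237 in C3H15-OE against it. The cause of these shifts was not tested. The sign of the member differences held in 95 of 95 values in 4 contrasts and in 91 of 95 between the overexpressors. In the double mutant against WT it held in 94 of 95, where CHI reached 0.32. Many of these values could not differ from the main fit. The replicate block, the trended robust prior and fitting only the arrays compared left these differences of group means unchanged. So did leaving out the dimmest probe sets or any array of a group outside the contrast. The counts of signs therefore say little of how stable the signs are. Of 14 calls of list genes under 19 settings, 193 of 266 outcomes held and 73 fell short, among them those of IRX10 in C3H15-OE in 8 settings and of IRX15 in the double mutant in 12. Probe sets near the array floor have no detection call, and binding shared between related genes was not tested.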
